A study of Mus musculus with 22 samples.

Results

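Kidney expression of 10 genes of TNF, IL-1, and NF-κB signaling was examined in mice given cisplatin, KW6002, or both. The 10 genes are the ligands Tnf and Il1b, the receptors Tnfrsf1a, Tnfrsf1b, and Tnfrsf12a, the NF-κB subunits Nfkb2 and Relb, and the feedback genes Nfkbia, Tnfaip3, and Birc3. They were picked by symbol, and each of the 10 was found once among the 32858 genes of the count table. All 10 had enough reads to be tested, as did 17131 genes in all.

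Kidneys came from 22 male C57Bl6/J mice, 8 to 10 weeks old, with 1 library per mouse. The vehicle group (n = 5) received neither drug, the KW6002 group (n = 6) received KW6002 at 3 mg/kg daily from day -5 to day 7, the cisplatin group (n = 5) received 6 daily injections of cisplatin at 3 mg/kg from day 0, and the cisplatin plus KW6002 group (n = 6) received both. Kidneys of cisplatin-treated mice were taken 72 hours after the last cisplatin injection. Cisplatin is a platinum drug that damages kidney tubules, and KW6002 (istradefylline) is an adenosine receptor antagonist. The comparisons ask what cisplatin did to these genes and whether KW6002 changed that. All mice given cisplatin carry numbers in the 500s, as do 2 of the 5 vehicle mice and 3 of the 6 KW6002 mice, whereas the other control mice carry numbers in the 300s. What the number series stands for is not given in the sources used here, and comparisons with the controls were also made within the 500s.

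TNF and IL-1β are cytokines that bind receptors on many cell types and, through adaptor proteins and the IκB kinase complex, release NF-κB dimers into the nucleus. NF-κB then switches on genes that include its own inhibitors, such as Nfkbia and Tnfaip3, so that transcripts of these feedback genes are commonly read as a record of pathway activity. In the kidney, TNF receptors are found on endothelial, tubular, and immune cells, and the TWEAK receptor Tnfrsf12a is known as a gene induced in injured epithelium.

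Levels are given as CPM, each count divided by its library's TMM-adjusted total and expressed per 1000000 counts. Totals ran from 26471762 to 40510754 counts. A gene was called higher or lower at a Benjamini-Hochberg adjusted p below 0.05 over all genes tested, by edgeR's quasi-likelihood test. Proximal tubule markers were abundant in the vehicle group, with a summed level of 33825 to 38518 CPM for 7 genes, and stood at 2386 to 4081 CPM after cisplatin and 6977 to 12266 CPM after cisplatin plus KW6002. Summed macrophage markers (9 genes) were 464 and 498 CPM in vehicle replicates 2 and 1 and 551 CPM in KW6002 replicate 1, against 186 to 312 CPM in the other control mice. In whole kidney, fewer cells of a type and less RNA per cell cannot be told apart.

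Cisplatin raised the receptor, subunit, and feedback transcripts, and neither ligand passed the test. Of the 10 genes, 8 were higher in the cisplatin group than in the vehicle group and 0 were lower. Of all genes tested, 34.6% were higher and 35.9% were lower. The median log2 fold change of the 10 genes was 1.45, against -0.01 over all genes tested. For the 8 genes the lowest cisplatin mouse exceeded the highest vehicle mouse, a separation seen for 27.4% of all genes. DESeq2 and an unadjusted p below 0.05 likewise gave 0 of the 10 as lower. Adding KW6002 to cisplatin lowered 7 of the 10 transcripts and raised 0, where 27.2% of all genes were lower and 28.6% were higher, with a median log2 fold change of -0.42 against 0.01 over all genes. For 4 of the 7 the highest co-treated mouse was below the lowest cisplatin mouse (18.5% of all genes). KW6002 alone changed 0 of the 10 by edgeR, where 0.0175% of all genes were higher and 0% were lower. Of the 10, 0 had an unadjusted p below 0.05 (11.3% of all genes) and 0 were called by DESeq2.

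**Figure D1:**
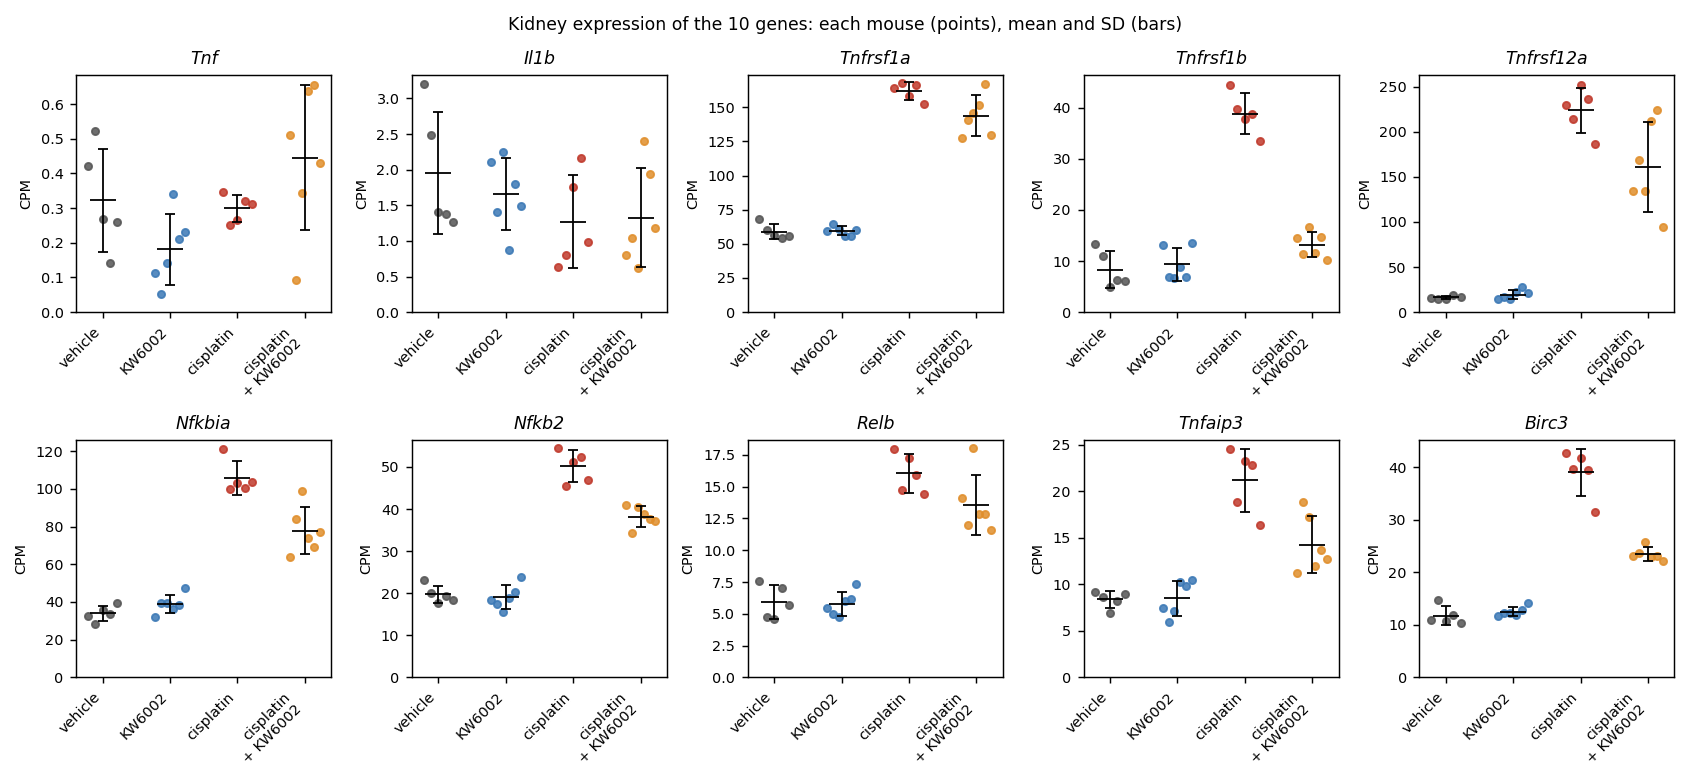
CPM (linear axes from 0) of each of the 10 genes in every mouse of the 4 groups, with the group mean and SD. The 5 cisplatin mice lie above all 5 vehicle mice for every gene except Tnf and Il1b, and the 6 cisplatin plus KW6002 mice lie below all cisplatin mice for Tnfrsf1b, Nfkbia, Nfkb2, and Birc3.

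The ligands were the scarcest of the 10 transcripts. Tnf, the prototypic ligand of the family, gave 2 to 23 counts per library. Tnf in the vehicle mice was at 0.421, 0.521, 0.269, 0.141, and 0.260 CPM, and in the cisplatin mice at 0.346, 0.251, 0.266, 0.321, and 0.311 CPM. Tnf ran from 0.0522 to 0.340 CPM (median 0.176) with KW6002 alone and from 0.0941 to 0.655 CPM (median 0.471) with cisplatin plus KW6002. All 4 groups overlapped.

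The Tnf log2 fold change was -0.10 ± 0.41 (SE, adjusted p = 0.847) for cisplatin against vehicle and 0.58 ± 0.37 (adjusted p = 0.188) for cisplatin plus KW6002 against cisplatin. With so few reads the 95% interval of the former reached from -0.94 to 0.75, which excludes neither an increase to 1.69 times nor a decrease to 0.520 times the vehicle level. Within the 500s the cisplatin difference had the other sign (log2 fold change 0.55, adjusted p = 0.398).

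Il1b, which encodes the IL-1β precursor, gave 18 to 99 counts per library. In the vehicle mice it was at 3.21, 2.49, 1.41, 1.37, and 1.27 CPM, and in the cisplatin mice at 0.639, 0.804, 1.76, 2.17, and 0.991 CPM. It ran from 0.868 to 2.25 CPM (median 1.64) with KW6002 and from 0.617 to 2.41 CPM (median 1.10) with cisplatin plus KW6002. The highest values were those of vehicle replicates 1 and 2, which also had high macrophage marker sums and the highest summed fat markers (5 genes) of the control mice, 679 and 1259 CPM, against 543 CPM in KW6002 replicate 1 and 61.9 to 322 CPM in the other control mice. The part of these cells in the difference was not tested.

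The Il1b log2 fold change for cisplatin against vehicle was -0.61 ± 0.37 (adjusted p = 0.149), and it was -0.06 (adjusted p = 0.924) within the 500s. It passed the threshold in a single alternative, without cisplatin replicate 4 (log2 fold change -0.89, adjusted p = 0.0480). For cisplatin plus KW6002 against cisplatin it was 0.07 ± 0.36 (adjusted p = 0.876). Il1b lies at chr2:129364570-129371139 on the minus strand (GRCm38), overlapped on the other strand by Il1bos. Strand use at the counting step is not given in the sources used here, so reads of this pair may not have been told apart.

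All 3 receptors rose after cisplatin. Tnfrsf12a, the receptor of the TNF family ligand TWEAK, showed the largest difference of the 10 genes. It was at 15.5, 14.9, 14.7, 19.5, and 16.7 CPM in the vehicle mice and at 230, 214, 252, 237, and 186 CPM in the cisplatin mice. With KW6002 alone it ran from 14.4 to 27.9 CPM (median 19.1) and overlapped the vehicle mice. Cisplatin plus KW6002 mice ran from 94.2 to 224 CPM (median 152), far above both control groups and overlapping the cisplatin group.

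Tnfrsf12a was thus 13.7-fold higher with cisplatin than with vehicle (log2 fold change 3.78 ± 0.21, adjusted p = 4.03e-13). It was 1.39-fold lower with cisplatin plus KW6002 than with cisplatin alone (log2 fold change -0.47 ± 0.18, adjusted p = 0.0286) and 9.91-fold higher than with vehicle (adjusted p = 9.61e-12). The call for KW6002 did not survive the loss of 6 of the 11 libraries, left out singly, the highest adjusted p being 0.0685 without cisplatin replicate 3. The 6 co-treated mice were widely spread, with an SD of 50.1 CPM against 24.96 CPM in the cisplatin group.

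Tnfrsf1b, the inducible TNF receptor found on immune and endothelial cells, showed the largest decrease with KW6002. It was at 13.3, 10.99, 4.87, 6.27, and 6.12 CPM in the vehicle mice and at 44.5, 39.7, 37.8, 38.7, and 33.5 CPM in the cisplatin mice. KW6002 mice ran from 6.64 to 13.6 CPM (median 7.86) and cisplatin plus KW6002 mice from 10.3 to 16.6 CPM (median 13.1). The highest co-treated mouse was far below the lowest cisplatin mouse and within reach of the upper control mice.

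Cisplatin raised Tnfrsf1b 4.68-fold (log2 fold change 2.23 ± 0.24, adjusted p = 2.33e-08), and the co-treated mice were 2.95-fold below the cisplatin mice (log2 fold change -1.56 ± 0.22, adjusted p = 2.73e-06). The co-treated mice remained 1.59-fold above vehicle (log2 fold change 0.67 ± 0.23, adjusted p = 0.0167), with overlapping groups. That call was lost without vehicle replicate 3, the lowest vehicle mouse (log2 fold change 0.53, adjusted p = 0.0567).

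The macrophage marker sum was higher in the control mice with the most Tnfrsf1b. The control mice with the 3 highest marker sums had 13.3, 10.99, and 13.1 CPM of Tnfrsf1b, and KW6002 replicate 6, with a sum of 312 CPM, had 13.6 CPM, against 4.87 to 8.87 CPM in the other 7 control mice. The cisplatin mice had marker sums of 273 to 396 CPM and the co-treated mice of 157 to 262 CPM, with no macrophage marker at 0 in any group. Cisplatin replicate 5 had the highest sum of its group and the lowest Tnfrsf1b. The markers did not move together. With cisplatin against vehicle, 1 of the 9 was higher, 2 were lower, and 6 did not pass. Lyz2 had the widest spread of the 9 among the vehicle mice (91.0 ± 71.7 CPM, SD). Cd68, a lysosomal protein of phagocytes, was at 18.5 ± 15.3 CPM (SD) with vehicle, 59.1 ± 9.15 with cisplatin (adjusted p = 0.00209), and 13.4 ± 4.195 with both drugs (adjusted p = 0.000207 against cisplatin), whereas the receptor gene Csf1r was at 82.1 ± 4.48, 34.99 ± 5.23, and 41.05 ± 4.36 CPM. Without the 3 control mice of high sum, an alternative chosen after seeing the data, the Tnfrsf1b log2 fold change was 2.75 for cisplatin against vehicle and 1.19 for cisplatin plus KW6002 against vehicle (adjusted p = 5.79e-05). Vehicle replicates 1 and 2, left out here, had the most Tnfrsf1b of their group, so a rise in both values followed from the choice. All 5 cisplatin mice had more Tnfrsf1b than the 3 control mice with higher macrophage sums. The sum adds markers that moved in opposite directions, and the part of macrophages in the Tnfrsf1b difference was not tested.

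Other cell type markers were also summed in the vehicle, cisplatin, and cisplatin plus KW6002 groups, and some of the ranges overlapped. Summed fibroblast markers (5 genes) ran from 144 to 255 CPM with vehicle, from 500 to 622 CPM with cisplatin, and from 262 to 412 CPM with cisplatin plus KW6002. Summed monocyte markers (4 genes) ran from 12.3 to 33.2, from 53.5 to 70.6, and from 38.9 to 52.2 CPM, and summed injured tubule markers (6 genes) from 215 to 282, from 2154 to 3515, and from 906 to 1438 CPM in the same order. The monocyte markers did not move together. With cisplatin 2 of the 4 were higher than with vehicle, 1 was lower, and 1 did not pass. Plac8 went from 13.9 to 45.6 CPM and Chil3 from 0.771 to 10.4 CPM, whereas Ly6c2 went from 0.390 to 0.0703 CPM. Summed fat markers ran from 144 to 1259, from 331 to 694, and from 38.2 to 334 CPM. Summed thick ascending limb markers (3 genes) ran from 4534 to 7569, from 1964 to 2280, and from 2293 to 4137 CPM, summed distal convoluted tubule markers (2 genes) from 1571 to 1630, from 34.6 to 80.4, and from 147 to 371 CPM, and summed principal cell markers (3 genes) from 232 to 466.2, from 516 to 767, and from 393 to 726 CPM. Of the 3 thick ascending limb markers, 3 were lower with cisplatin than with vehicle. With both drugs against vehicle, only 1 of these 3 was lower and 2 did not pass. Summed endothelium markers (6 genes) ran from 412 to 436, from 341 to 423, and from 345.85 to 385 CPM. Neutrophil, T cell, B cell, and dendritic cell markers summed to at most 17.7, 9.03, 4.21, and 24.9 CPM in any mouse. The neutrophil marker Mpo had too few reads to be tested. It was at 0 in both cisplatin groups and at means of 0.0080 CPM with vehicle and 0.0047 CPM with KW6002. The part of these cells in the Tnfrsf1b and Tnfrsf12a differences was not tested.

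**Figure D2:**
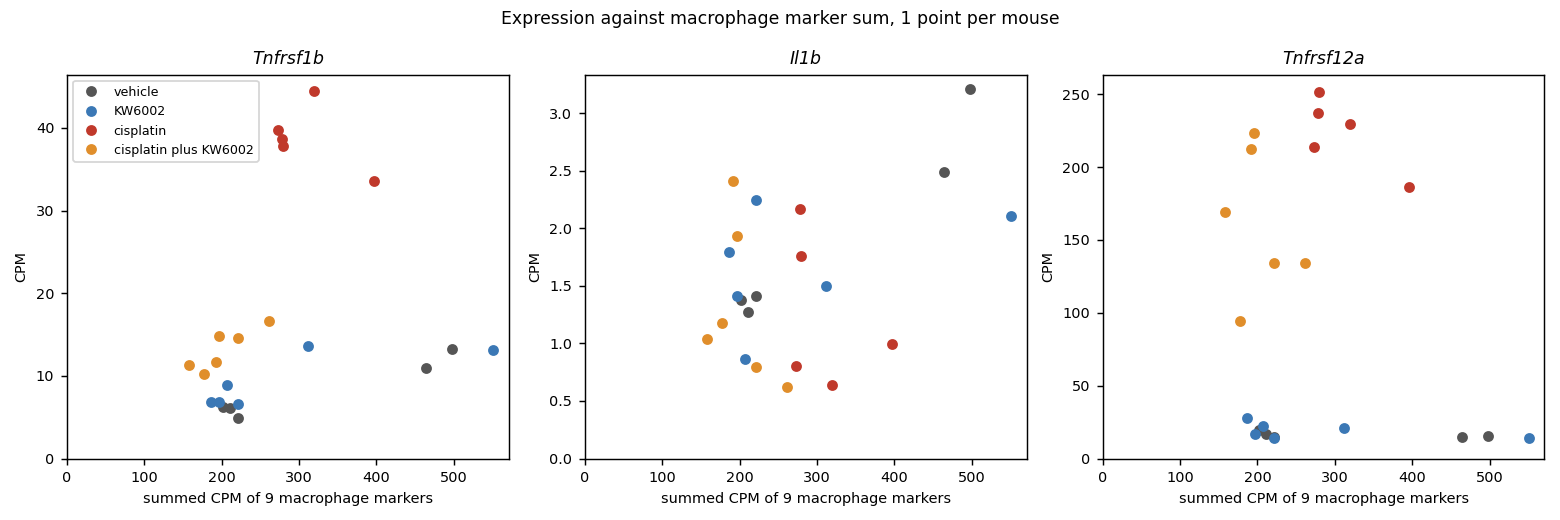
CPM of Tnfrsf1b, Il1b, and Tnfrsf12a (vertical axes from 0) against the summed CPM of 9 macrophage markers (horizontal axes), 1 point per mouse, colored by group. Cisplatin mice, at 33.5 to 44.5 CPM of Tnfrsf1b, lie above control mice with higher marker sums, and the co-treated mice lie between 10.3 and 16.6 CPM.

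Tnfrsf1a, the widely expressed TNF receptor that carries a death domain, was the most even of the receptors. It was at 68.2, 60.4, 56.4, 54.4, and 55.7 CPM in the vehicle mice and at 164, 168, 158, 166, and 153 CPM in the cisplatin mice. The KW6002 group spanned 55.6 to 64.9 CPM (median 59.9) and the cisplatin plus KW6002 group 127 to 167 CPM (median 143). The last group lay wholly above the controls, and its highest mouse lay among the cisplatin mice.

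Cisplatin raised Tnfrsf1a 2.74-fold (log2 fold change 1.46 ± 0.07, adjusted p = 3.10e-14), while the decrease with KW6002 was 1.12-fold (log2 fold change -0.17 ± 0.07, adjusted p = 0.0325). The latter is near the threshold. Its adjusted p reached 0.0824 without cisplatin plus KW6002 replicate 1, and the call was lost in 6 of the 11 fits that left out 1 library.

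**Figure D3:**
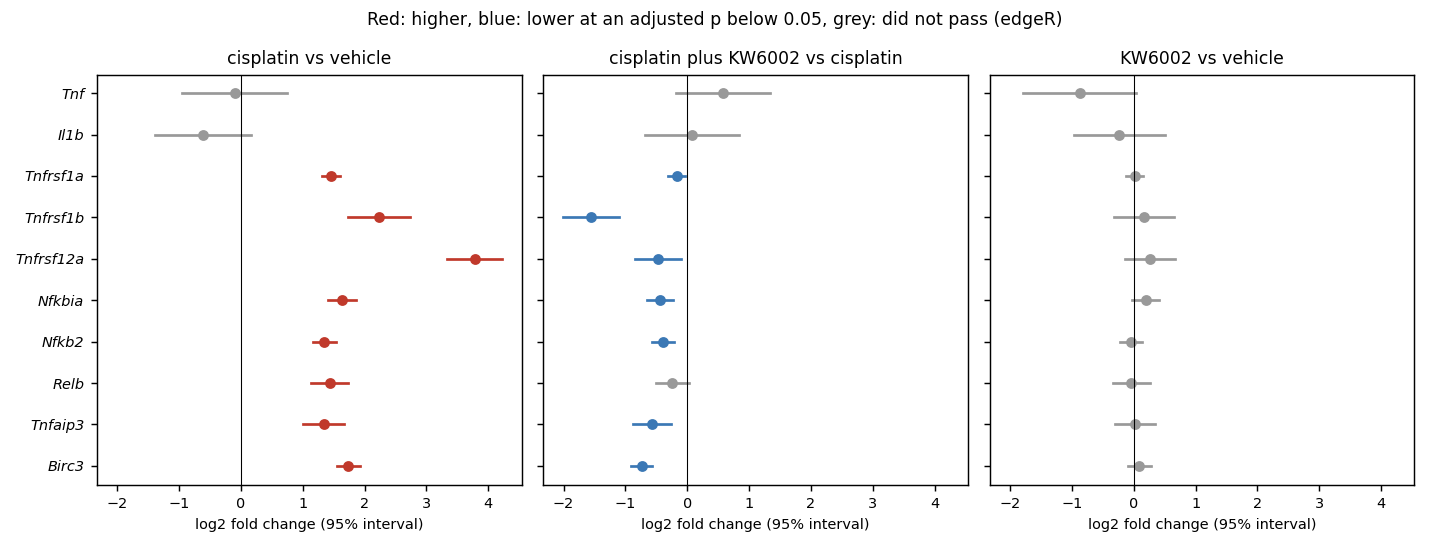
Log2 fold change with its 95% interval for the 10 genes in 3 comparisons, on a shared axis. Red marks genes that were higher and blue genes that were lower at an adjusted p below 0.05, with 8 red genes for cisplatin against vehicle, 7 blue genes for cisplatin plus KW6002 against cisplatin, and only grey genes for KW6002 against vehicle.

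Nfkb2 and Relb encode the partner subunits of the noncanonical NF-κB dimer, which TWEAK and lymphotoxin receptors are known to engage. Nfkb2 was at 23.1, 20.01, 17.7, 19.3, and 18.5 CPM in the vehicle mice and at 54.5, 45.5, 51.2, 52.4, and 46.8 CPM in the cisplatin mice. KW6002 mice ran from 15.5 to 23.8 CPM (median 18.6) and cisplatin plus KW6002 mice from 34.2 to 40.96 CPM (median 38.2). The co-treated group sat between the control and cisplatin groups without touching either.

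Nfkb2 rose 2.54-fold with cisplatin (log2 fold change 1.35 ± 0.09, adjusted p = 6.52e-12) and was 1.31-fold lower with KW6002 added (log2 fold change -0.39 ± 0.08, adjusted p = 0.000347). The gene lies at chr19:46304320-46312385 on the plus strand, where AC114539.1 and Psd overlap it on the other strand, so the caution on strand given for Il1b holds here too.

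Relb was at 7.58, 4.73, 4.604, 7.01, and 5.66 CPM in the vehicle mice and at 18.0, 14.8, 17.2, 15.9, and 14.4 CPM in the cisplatin mice. KW6002 mice ran from 4.74 to 7.36 CPM (median 5.74) and cisplatin plus KW6002 mice from 11.6 to 18.0 CPM (median 12.9). Of the 8 genes raised by cisplatin, Relb was the exception in not passing the test for KW6002 co-treatment. It rose 2.71-fold with cisplatin (log2 fold change 1.44 ± 0.14, adjusted p = 6.07e-09) and the difference for KW6002 co-treatment was -0.24 ± 0.13 on the log2 scale (adjusted p = 0.116, 95% interval -0.51 to 0.03). Cisplatin plus KW6002 replicate 3, at 18.0 CPM, decided this. Without it the log2 fold change was -0.34 (adjusted p = 0.0245).

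Nfkbia encodes IκBα, which holds NF-κB in the cytoplasm and is itself an NF-κB target. It was at 32.7, 28.2, 35.6, 33.7, and 39.4 CPM in the vehicle mice and at 121, 99.9, 103, 100, and 104 CPM in the cisplatin mice. KW6002 alone gave 32.1 to 47.3 CPM (median 38.9) and cisplatin plus KW6002 63.9 to 99.0 CPM (median 75.4). Cisplatin replicate 1 stood apart at the top of its group, and the highest co-treated mouse was just under the lowest cisplatin mouse. Nfkbia rose 3.11-fold with cisplatin (log2 fold change 1.64 ± 0.11, adjusted p = 6.73e-12) and was 1.36-fold lower with KW6002 added (log2 fold change -0.44 ± 0.10, adjusted p = 0.000713).

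Tnfaip3 encodes a ubiquitin-editing enzyme that shuts off signaling from TNF and IL-1 receptors. It was at 9.16, 8.62, 6.92, 8.21, and 8.95 CPM in the vehicle mice and at 24.5, 18.8, 23.3, 22.8, and 16.4 CPM in the cisplatin mice. KW6002 mice ran from 5.96 to 10.5 CPM (median 8.65) and cisplatin plus KW6002 mice from 11.2 to 18.8 CPM (median 13.2). The co-treated mice were all above the controls, and the upper ones reached the lower cisplatin mice. Tnfaip3 rose 2.53-fold with cisplatin (log2 fold change 1.34 ± 0.16, adjusted p = 1.19e-07) and was 1.49-fold lower with KW6002 added (log2 fold change -0.57 ± 0.15, adjusted p = 0.00224).

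Birc3 encodes a ubiquitin ligase recruited to TNF receptors that restrains noncanonical signaling and cell death. It was at 11.01, 14.8, 10.8, 11.8, and 10.4 CPM in the vehicle mice and at 42.7, 39.7, 41.8, 39.5, and 31.4 CPM in the cisplatin mice. Values ran from 11.6 to 14.2 CPM (median 12.3) with KW6002 and, with both drugs, from 22.2 to 25.8 CPM (median 23.1). The co-treated group was the tightest of the 10 genes in that group, with an SD of 5.39% of the mean, and lay apart from controls and cisplatin mice. Birc3 rose 3.33-fold with cisplatin (log2 fold change 1.73 ± 0.09, adjusted p = 7.99e-14) and was 1.66-fold lower with KW6002 added (log2 fold change -0.74 ± 0.08, adjusted p = 9.35e-08). After Tnfrsf1b this was the largest decrease of the 10 genes.

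Promoter sequence is shown for the 3 genes whose first listed start carries the κB consensus, the letters that NF-κB dimers are known to bind. RefSeq (GRCm38.p6) gave 12 windows of 250 bases before a gene start for 9 of the 10 genes, and Relb had no entry. The degenerate κB consensus, searched on both strands with overlaps allowed, occurred in 5 of the 12 windows, those of Nfkbia, of the 3 starts of Nfkb2, and of 1 of the 2 starts of Tnfaip3, while 3.90% of all 32851 windows of this length held it. The windows are not independent, since 3 are of Nfkb2 and 2 of these overlap. The 10 genes include known NF-κB targets, so the comparison with all windows is not a test. Each stretch below runs 5′ to 3′ on the strand of the gene, with consensus matches in capitals.
Nfkbia: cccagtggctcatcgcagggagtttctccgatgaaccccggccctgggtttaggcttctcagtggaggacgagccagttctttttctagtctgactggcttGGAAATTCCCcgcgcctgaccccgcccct
Tnfaip3: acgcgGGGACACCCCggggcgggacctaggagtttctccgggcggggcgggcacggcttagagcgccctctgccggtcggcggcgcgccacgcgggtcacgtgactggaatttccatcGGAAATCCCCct
Nfkb2: gggatcgtcacGGGAATTCCCCccctcggg

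The Nfkbia stretch is chr12:55492648-55492777 on the minus strand, 130 bases that end at the gene start, and its match lies at -29 to -20. The Tnfaip3 stretch is chr10:19015411-19015540 on the minus strand, with matches at -125 to -116 and -12 to -3. It precedes the RefSeq start, but GENCODE M21 places the gene at chr10:19000910-19015657, so the stretch lies within that annotated span. The Nfkb2 stretch is chr19:46304687-46304716 on the plus strand, and its capitals hold overlapping matches at -39 to -30 and -38 to -29, with a further match, GGGGCTTTCC, at -11 to -2. It is given as 30 bases because 2 annotated exons overlap it, and the transcripts and strand of these exons were not looked up. A window with 3 or more matches occurred in 0.0426% of all windows. No consensus match was found in these windows of Tnf, Il1b, Birc3, or the 3 receptors, which says nothing of sites elsewhere. A match is a string of letters, and binding was not measured.

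Per kilobase of exon, the order of levels changed with cisplatin. In the vehicle group Tnfrsf1a (22.8 ± 2.16 CPM per kilobase, SD) and Nfkbia (21.1 ± 2.53) led without a difference beyond their spread, followed by Tnfrsf12a (8.42 ± 1.04) and Nfkb2 (4.30 ± 0.45). With cisplatin, Tnfrsf12a led at 115.8 ± 12.9 CPM per kilobase, ahead of Nfkbia (65.6 ± 5.52) and Tnfrsf1a (62.4 ± 2.47), which again lay within each other's spread. With cisplatin plus KW6002, Tnfrsf12a (83.4 ± 25.96) still led. Tnfrsf1b lay within the spread of Birc3 with vehicle (2.18 ± 0.950 against 2.35 ± 0.351), of Nfkb2 with cisplatin (10.2 ± 1.03 against 10.9 ± 0.829), and of Relb with both drugs (3.45 ± 0.651 against 3.49 ± 0.602). Il1b and Tnf were the lowest of the 10 in all 4 groups.

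KW6002 mice overlapped the vehicle mice for all 10 genes. By edgeR it raised 0 and lowered 0 of the 10, while over all genes tested 3 were higher (0.0175%) and 0 were lower (0%), and 1930 (11.3%) had an unadjusted p below 0.05, with 99 called by DESeq2. The largest values were -0.87 ± 0.44 for Tnf (log2 fold change, adjusted p = 0.455), 0.26 ± 0.19 for Tnfrsf12a (adjusted p = 0.644), and -0.23 ± 0.36 for Il1b (adjusted p = 0.844). For Tnfrsf1a the 95% interval of the fold change ran from 0.918 to 1.11, and for Birc3 from 0.942 to 1.21, so that only small differences remained possible for these genes. For Tnf it ran from 0.290 to 1.02, which leaves a large decrease possible.

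Compared with vehicle, the co-treated mice had 8 of the 10 genes higher and 0 lower, where 29.8% of all genes were higher and 29.9% lower, and for 7 of them the groups did not overlap (18.9% of all genes), Tnfrsf1b being the exception. Their fold changes ran from 1.59 for Tnfrsf1b to 9.91 for Tnfrsf12a. Tnfrsf1a was 2.44-fold, Nfkbia 2.29-fold, Relb 2.29-fold, Birc3 2.00-fold, Nfkb2 1.94-fold, and Tnfaip3 1.70-fold higher. The vehicle mice serve in both comparisons with vehicle, and the cisplatin mice in both comparisons with cisplatin, so these values are not independent of each other. The study's own rule is stricter and asks for an adjusted p under 0.01 with at least 1 log2 unit of change. Under it, cisplatin raised 8 of the 10 genes (12.1% of all genes), KW6002 co-treatment lowered only Tnfrsf1b (5.66%), and 4 genes were higher with both drugs than with vehicle (5.83%).

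Within the 500s, 8 of the 10 genes were again higher with cisplatin than with vehicle, with log2 fold changes from 1.30 for Tnfaip3 to 3.62 for Tnfrsf12a, and the same number was higher with cisplatin plus KW6002. The vehicle group of this fit was replicates 4 and 5 alone, and the share of all genes called in it was not counted. The comparison of cisplatin plus KW6002 with cisplatin lies wholly within the 500s.

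Whether KW6002 acted differently with and without cisplatin was tested as an interaction, the difference between the log2 fold changes of KW6002 with and without cisplatin. It was lower for 6 of the 10 genes (19.9% of all genes) and higher for 1 (22.8%). The 6 were Tnfrsf1b (-1.73 ± 0.32, adjusted p = 0.000167), Birc3 (-0.83 ± 0.12, adjusted p = 8.69e-06), Tnfrsf12a (-0.73 ± 0.26, adjusted p = 0.0301), Nfkbia (-0.64 ± 0.14, adjusted p = 0.00118), Tnfaip3 (-0.59 ± 0.22, adjusted p = 0.0318), and Nfkb2 (-0.34 ± 0.12, adjusted p = 0.0248). Tnfrsf1a (-0.18 ± 0.09, adjusted p = 0.119), Relb (-0.21 ± 0.19, adjusted p = 0.409), and Il1b (0.31 ± 0.51, adjusted p = 0.660) did not pass. Without vehicle replicate 3 the 6 became 3, with Tnfrsf12a, Nfkb2, and Tnfaip3 at adjusted p-values of 0.0533, 0.0536, and 0.0645. Of the 22 fits that left out 1 library, the Tnfaip3 interaction was lost in 9, that of Tnfrsf12a in 3, and that of Nfkb2 in 2. Within the 500s the Tnfrsf12a interaction was -0.85 and just missed the threshold (adjusted p = 0.0508). It also missed it without the 3 control mice of high macrophage marker sum (-0.74, adjusted p = 0.0533).

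Tnf was the gene with a higher interaction (1.45 ± 0.57, adjusted p = 0.0448). This value rests on 2 to 23 counts per library and on mice of both number series. Within the 500s it was 0.23 (adjusted p = 0.835), DESeq2 gave an adjusted p of 0.0512, and the call was lost in 15 of the 22 fits that left out 1 library, with an adjusted p of up to 0.0974 without vehicle replicate 2.

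Single mice were the highest or lowest of their group for several of the 8 genes raised by cisplatin. Cisplatin replicate 1 was the highest of its group for 6 of them and cisplatin replicate 5 the lowest for 6. These mice also had the highest and the lowest summed injured tubule markers of their group, 3515 and 2154 CPM, and the lowest and the highest summed proximal tubule markers, 2386 and 4081 CPM. In the co-treated group, replicate 3 was highest for 4 genes and replicate 6 lowest for 4, and replicate 6 had the lowest injured tubule sum (906 CPM) and the highest proximal tubule sum (12266 CPM). Replicate 3, at 1308 and 7847 CPM, was at neither end of its group for these sums. That mouse had the highest macrophage (262 CPM) and endothelium (385 CPM) marker sums of the co-treated group. Cisplatin replicate 5 had the highest macrophage (396 CPM) and the lowest endothelium (341 CPM) sum of the cisplatin group. Among the controls, vehicle replicate 1 was highest for 5 and vehicle replicate 3 lowest for 5, and KW6002 replicate 6 was highest for 6. These are descriptions of single mice, without a test.

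Other genes of the pathway were followed in 4 lists that exclude the 10. Of 31 tested members of the TNF superfamily, 17 were higher and 8 lower with cisplatin than with vehicle, against 34.6% and 35.9% of all genes, with a median log2 fold change of 0.66 against -0.01 over all genes. At a mean level of at least 1 CPM, the largest 3 changes were in receptors. Eda2r, a receptor for ectodysplasin, was at 0.923 ± 0.367 CPM (SD, n = 5) with vehicle and 80.7 ± 8.81 CPM (n = 5) with cisplatin (log2 fold change 6.47 ± 0.21 (SE), adjusted p = 4.86e-17). Tnfrsf23, a decoy receptor for TRAIL, went from 1.25 to 16.1 CPM (log2 fold change 3.68, adjusted p = 9.58e-12), and Tnfrsf10b, the TRAIL death receptor, from 2.66 to 21.6 CPM (log2 fold change 3.03, adjusted p = 3.73e-13).

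With KW6002 added to cisplatin, 2 of the 31 members of the TNF superfamily were higher and 11 lower, against 28.6% and 27.2% of all genes (median log2 fold change -0.27 against 0.01). Tnfrsf23 was 4.03-fold lower, at 3.98 ± 0.876 CPM (SD, n = 6, adjusted p = 3.68e-08). Tnfrsf19 was 3.11-fold lower (3.71 to 1.19 CPM, adjusted p = 1.55e-05), and Tnfrsf22, another decoy receptor, was 1.89-fold lower (5.70 to 3.01 CPM, adjusted p = 6.30e-05). Tnfrsf22 and Tnfrsf23 are close relatives, and reads that matched both would have been dropped, since only unique alignments were kept. All 3 separated fully from the cisplatin mice.

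Of 23 tested genes of the IL-1 family and inflammasome, 13 were higher and 4 lower with cisplatin, against 34.6% and 35.9% of all genes (median log2 fold change 0.39 against -0.01). Among those at a mean of at least 1 CPM, the following changed most. Il1rn, which encodes the IL-1 receptor antagonist, was at 0.256 ± 0.179 CPM (SD) with vehicle and 4.08 ± 1.09 CPM with cisplatin (16.05-fold higher, adjusted p = 1.03e-06). Il18r1, a subunit of the IL-18 receptor, rose 6.69-fold (adjusted p = 2.11e-08) and Il33, an alarmin cytokine of the family, 3.57-fold (adjusted p = 5.89e-10). Il1b itself did not pass the test in this comparison.

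With KW6002 added, 3 of the 23 were higher and 9 lower, against 28.6% and 27.2% of all genes (median log2 fold change -0.20 against 0.01). Il1rn was 2.92-fold lower (adjusted p = 0.00325) and Il18r1 2.33-fold lower (adjusted p = 0.000259). Sigirr, an inhibitory receptor of the family, was 2.32-fold higher, at 114.5 ± 7.00 CPM (SD, n = 6) against 49.3 ± 3.41 CPM (n = 5) with cisplatin (adjusted p = 8.94e-12), with no overlap between the groups.

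Of 24 NF-κB subunits, inhibitors, and kinases, 21 were higher and 2 lower with cisplatin, against 34.6% and 35.9% of all genes, with a median log2 fold change of 0.40 against -0.01. Nfkbiz, an atypical nuclear IκB protein, rose 3.66-fold (adjusted p = 3.69e-15). Map3k8, a kinase that couples TNF receptors to MAP kinases, rose 3.08-fold (adjusted p = 8.21e-10), and Ikbkg, the regulatory subunit of the IκB kinase complex, 1.92-fold (adjusted p = 9.40e-12). With KW6002 added, 7 of the 24 were higher and 6 lower, shares near the 28.6% and 27.2% of all genes, with a median log2 fold change of -0.04 against 0.01. The 3 with the largest change were lower, namely Map3k8 (1.98-fold, adjusted p = 1.31e-06), the IκB kinase relative Ikbke (1.86-fold, adjusted p = 4.57e-05), and Ikbkg (1.48-fold, adjusted p = 5.95e-08).

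Of 38 tested receptor adaptors and feedback regulators, 21 were higher and 6 lower with cisplatin, against 34.6% and 35.9% of all genes (median log2 fold change 0.29 against -0.01). Zfp36, whose protein promotes decay of Tnf mRNA, rose 5.18-fold, from 43.1 ± 6.45 to 223 ± 37.0 CPM (SD, n = 5 each, adjusted p = 5.14e-12), and Ier3, an immediate early response gene, rose 3.40-fold (adjusted p = 1.52e-09). Tnfaip8, named as a TNF-induced gene, moved the other way, from 470 ± 76.2 to 113 ± 10.6 CPM (adjusted p = 4.24e-12). With KW6002 added, 5 of the 38 were higher and 10 lower, the latter a share near the 27.2% of all genes, where 28.6% were higher (median log2 fold change -0.05 against 0.01). Irak3, a brake on IL-1 receptor signaling, was 1.70-fold lower (adjusted p = 0.00105) and Cflar, an inhibitor of death receptor signaling, 1.47-fold lower (adjusted p = 6.86e-07), while the adaptor ligase Traf6 was 1.54-fold higher (adjusted p = 7.02e-09). KW6002 alone changed 0 of the 116 tested genes of the 4 lists by edgeR, where 0.0175% of all genes were higher and 0% were lower. DESeq2 called 0 of the 116, and 8 had an unadjusted p below 0.05, against 11.3% of all genes.

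**Figure D4:**
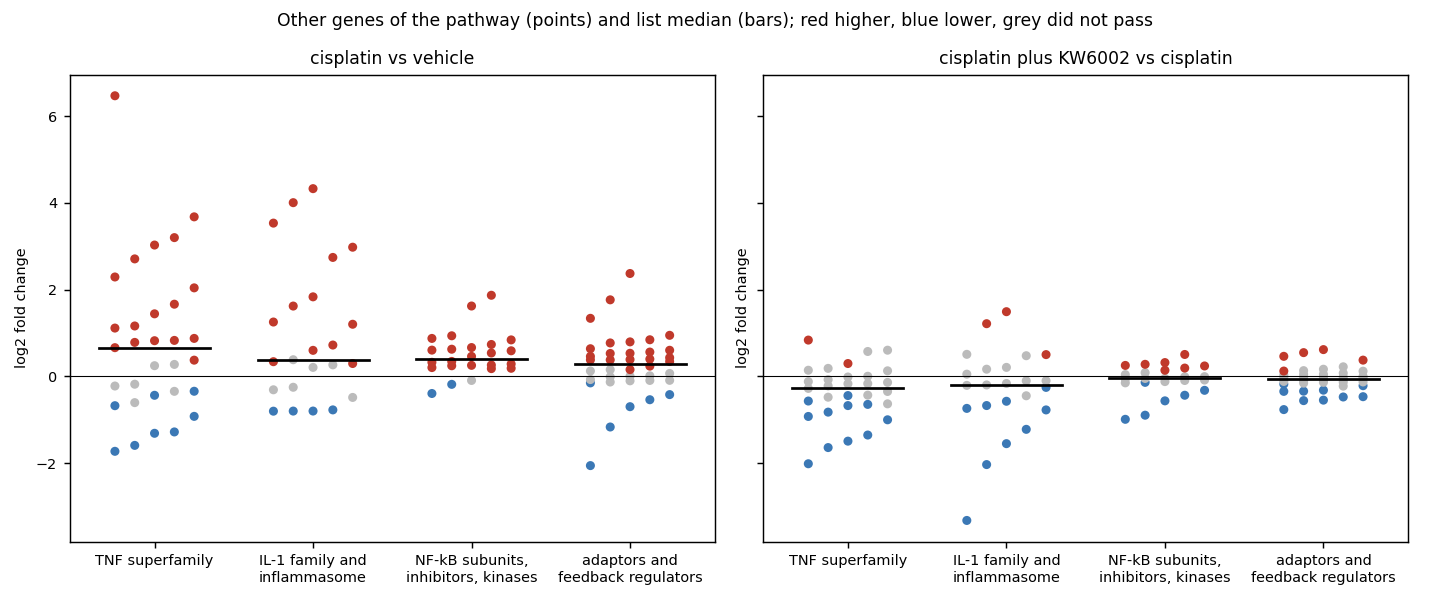
Log2 fold change of each tested gene of 4 pathway lists (points, spread sideways for legibility) with the list median (bar), for cisplatin against vehicle on the left and cisplatin plus KW6002 against cisplatin on the right. Red marks higher, blue lower, and grey genes that did not pass, with 21 of 24 NF-κB subunits, inhibitors, and kinases higher after cisplatin.

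Genes with the pattern nearest to those of Tnfrsf12a and Tnfrsf1b were sought by Euclidean distance over the 3 group means of log2 CPM relative to vehicle, among 10422 well expressed genes. Nearest to Tnfrsf12a were Sprr1a (distance 0.154), Cebpd (0.398), and Socs3 (0.398). Sprr1a, for instance, was at 5.03 ± 4.24 CPM (SD) with vehicle, 4.83 ± 1.14 with KW6002, 51.9 ± 10.9 with cisplatin, and 34.6 ± 7.48 with both drugs. Nearest to Tnfrsf1b were Col1a1 (0.120), F2r (0.121), and Vwf (0.136), a collagen chain, the thrombin receptor, and von Willebrand factor. Vwf was at 5.37 ± 0.380 CPM with vehicle, 6.45 ± 1.13 with KW6002, 25.2 ± 1.76 with cisplatin, and 9.15 ± 4.08 with both drugs. Col1a1 is itself among the fibroblast markers used above. The measure uses 3 values per gene and carries no test.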

How the data were processed

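Kidney mRNA of 22 mice (5 vehicle, 6 KW6002, 5 cisplatin, 6 cisplatin plus KW6002) was measured, with groups taken from the sample titles. The authors made stranded mRNA libraries, mapped reads to mm10 with STAR, kept unique alignments, and counted them with HTSeq 0.6.1p1 (the submitters' processing notes); the deposited values are raw counts per Ensembl gene. Whether counting used strand is not given in the sources used here. The 66 unnamed columns of the table held no value and were not used. GENCODE M21 (GRCm38) gave symbols and positions for 32824 of 32858 genes; the other 34 held 0.00459% of counts.

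Depth was 26471762 to 40510754 (median 32721214.5); counting error limits Tnf and Il1b most. Genes were kept by filterByExpr (count minimum 10, total minimum 15), leaving 17131 genes with 99.9% of counts and removing 15727. edgeR 4.0.16 in R 4.3.3 fitted all 22 libraries with TMM factors and 1 mean per group by the quasi-likelihood test, with Benjamini-Hochberg adjustment over all genes tested and two-sided tests. The SE is the log2 fold change divided by the square root of F, and intervals use its t distribution. The common dispersion was 0.0168. The steps were tested on simulated data.

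Alternatives were DESeq2 1.42.0, relative log expression factors, library size scaling, all genes kept, a filter of at least 10 counts per library, a fit of the compared groups alone, a replicate block, the label series as a covariate, only the 500s, the study's thresholds, each library left out, and, added after seeing the data, the 3 libraries with the highest macrophage marker sums left out. The 10 genes, the pathway and marker lists, and the tests were chosen with earlier results of these data known. All 10 genes are given, with the 3 largest changes among called genes of each pathway list at a mean of at least 1 CPM in each of the 2 main comparisons, and the 3 genes of nearest pattern (average log2 CPM of at least 3) for the 2 genes with the largest cisplatin change. The labels name no shared source for mice of 1 number, and p-values measure the spread between these mice. Samples with identical counts were looked for, and 0 pairs were found. Figures were drawn with matplotlib 3.10.9.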

Additional observations from a re-analysis of the deposited data

Results flagged for a closer look

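In 2 of the 40 sets of 5 or 6 mice (10 genes in 4 groups), 1 mouse stood far from the rest of its group by Dixon's criterion, which chance alone meets in about 1 of 20 sets. Nfkbia was 121 CPM in cisplatin replicate 1, the highest of its group, with a gap to the next mouse of 0.831 of the group's range. Birc3 was 31.4 CPM in cisplatin replicate 5, the lowest of its group.

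For 7 genes the effect of KW6002 differed between mice with and without cisplatin by the interaction test. The differences in log2 fold change were -1.73 for Tnfrsf1b, -0.83 for Birc3, -0.73 for Tnfrsf12a, -0.64 for Nfkbia, -0.59 for Tnfaip3, -0.34 for Nfkb2, and 1.45 for Tnf. The value for Tnf was 0.23 within the 500s, where that for Tnfrsf12a was -0.85 (adjusted p = 0.0508).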

How the results depend on the processing

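The 8 genes raised by cisplatin kept their direction and their call in every alternative run, including each library left out (8 genes each time), and 0 to 1 were lower, Il1b without cisplatin replicate 4. For cisplatin plus KW6002 against cisplatin, 5 to 7 were lower and 0 to 1 higher (Tnf without co-treated replicate 2) when single libraries were left out, and 1 was lower under the study's thresholds. For cisplatin plus KW6002 against vehicle, 7 to 8 were higher without single libraries and 4 under the study's thresholds. The interaction was higher for 0 to 1 and lower for 3 to 7 genes without single libraries. It was higher for 0 genes under DESeq2, library size scaling, the filter of at least 10 counts per library (which removed Tnf), all genes kept, only the 500s, the study's thresholds, and without the 3 libraries of high macrophage marker sum, and lower for 1 gene under the study's thresholds. It could not be run on only the groups compared, since it uses all 4. Scaling by library size moved the median of all genes to a log2 fold change of 0.20 for cisplatin and 0.16 for cisplatin plus KW6002 against vehicle. In the fits without single libraries, the share of all genes called was not counted.

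Sign changes concerned values that did not pass the test. Tnf for cisplatin against vehicle was 0.12 with library size scaling, 0.55 in the 500s, and 0.40 without the 3 libraries, and ran from -0.28 to 0.12 without single libraries. Il1b for cisplatin plus KW6002 against cisplatin ran from -0.18 to 0.35. For KW6002 against vehicle, the values in the 500s were 0.35 (Tnf), 0.072 (Il1b), 0.15 (Nfkb2), and 0.041 (Relb), those without the 3 libraries 0.21 (Il1b), 0.055 (Nfkb2), and 0.022 (Relb), and Tnfaip3 was -0.037 with the label series as a covariate. Without single libraries they ran from -0.35 to 0.030 (Il1b), -0.013 to 0.073 (Tnfrsf1a), -0.12 to 0.014 (Nfkb2), -0.12 to 0.070 (Relb), and -0.050 to 0.10 (Tnfaip3). Il1b was 0.021 for cisplatin plus KW6002 against vehicle in the 500s, and -0.13 for the interaction without the 3 libraries. The cause of these changes was not tested.

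With the replicate number as a block, 8 genes were higher with cisplatin, 6 were lower with KW6002 added (Tnfrsf1a at an adjusted p of 0.0784), the interaction was higher for 0 genes and lower for 5, and the log2 fold change of Tnfaip3 for KW6002 alone was -0.0018. The share of all genes called in the block fit was not counted. The deviations of same-numbered mice correlated between -0.287 and 0.534 (median 0.035 over 31 pairs), with 10 of the 31 above 0.1, and 7 of 22 libraries correlated best with a library of their own number. Pairing was accepted only if every pair exceeded 0.1, so the numbers were not taken to pair the mice. This rule is strict, and not meeting it does not exclude pairing.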
